A study of Homo sapiens with 8 samples.

Results

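The Acetalax response of triple-negative MDA-MB468 breast cancer cells was compared, gene by gene, between the parental line and cells made resistant to the drug. For each gene the log2 change with Acetalax was taken in parental cells and in resistant cells, and the parental change was subtracted from the resistant one. A negative difference therefore means a smaller increase, or a larger decrease, in the resistant cells. The contrast uses 4 of the 8 libraries, and 10852 of the 55679 genes counted passed the filter, a mean level over these 4 libraries of 5 CPM or more (CPM is a gene's count relative to its library's size).

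Acetalax is oxyphenisatin acetate, a former laxative, and MDA-MB468 is an epithelial human line that lacks estrogen and progesterone receptors. Resistant cells, called CE for chronic exposure, had been passaged in rising Acetalax up to 40 μmol/L, were described as resistant clones, and were drug-free for 2 weeks before use. Polyadenylated RNA was sequenced from untreated parental and CE cells and from both after 6 hours in 1 μmol/L Acetalax, with 1 library per condition. BT549, a mesenchymal triple-negative line, had the same 4 conditions.

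With 1 library per condition, no difference within MDA-MB468 has a replicate check, no p-value is given for it, and "higher" and "lower" describe these libraries. Total counts per MDA-MB468 library ranged from 44147440 to 48626733, and every interval below is a 95% interval for counting error only. All 14 epithelial and basal markers passed the filter, with a summed level between 12693 and 19564 CPM against 433 to 646 CPM in the BT549 libraries. The 12 mesenchymal markers summed to between 29.6 and 82.3 CPM, of which only FN1 and COL1A1 passed the filter. ZEB2, CDH2, PGR, HBB and CD3E were at or near 0, but not every marker listed as absent was. Of 3 receptors listed as absent in triple-negative cells, 1 passed the filter, and their sum was 92.2 CPM in the parental control. Of the blood, endothelial and erythroid markers 1 passed. They summed to 47.4 CPM in the parental and 14.2 CPM in the CE control. The marker that passed had a CE minus parental control level of -1.79 on the log2 scale. The share of counts on mitochondrially encoded genes was 10.0% and 9.98% in the parental and CE controls and 7.89% and 8.87% after Acetalax.

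As background, a cell that is swollen, injured or short of nutrients switches on immediate early genes within minutes to hours. Many of them encode AP-1 factors (FOS, JUN and MAF relatives), which in turn drive cytokines, growth factors and feedback inhibitors. A separate arm, the integrated stress response, works through translation factor eIF2 and ATF4. TRPM4, a sodium-conducting channel opened by intracellular calcium, is the protein the study connects with Acetalax.

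Genes with a lower response in CE cells outnumbered those with a higher one. The difference was -1 or less for 119 genes, 1.1% of the genes tested, and 1 or more for 11 genes, 0.101% of them. Over all genes the median difference was 0.03 with an SD of 0.34, and the middle 95% of genes lay between -0.78 and 0.59. The counting interval of each of the 130 genes left out 0, and for 71 of them the whole interval lay past 1 in size. CYP4F11 at -1.004 and SNPH at 1.02 were the last genes inside the threshold, and KLF10 at -0.998 and RASSF10 at 0.987 the first outside it. In RNA from a whole dish, fewer cells of a kind and less RNA per cell cannot be told apart.

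**Figure D1:**
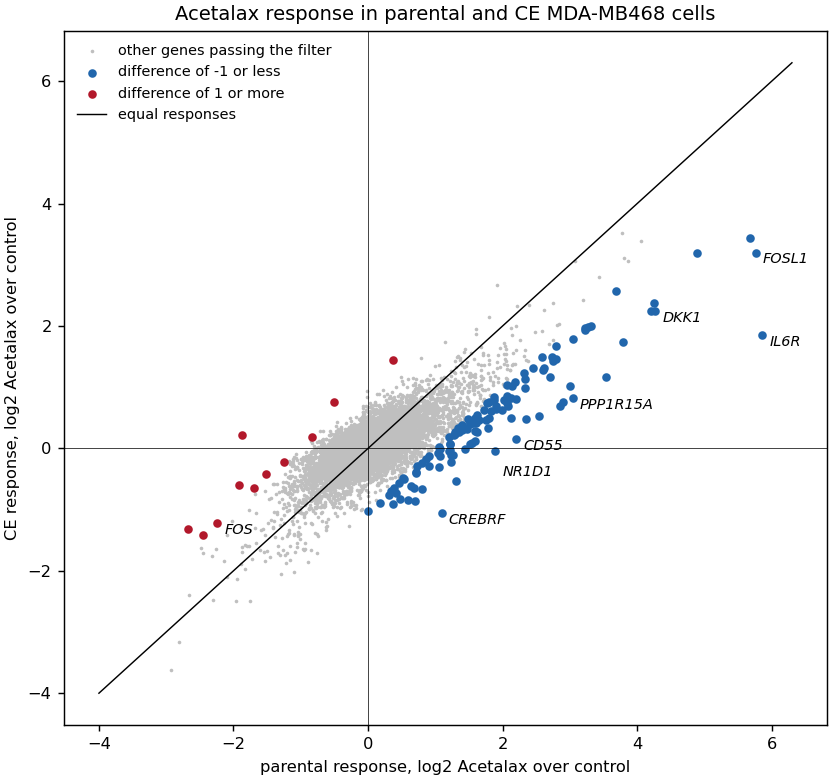
Each point is 1 of the 10852 genes; the x axis is the log2 change with Acetalax in parental cells and the y axis the log2 change in CE cells, with equal responses on the diagonal. Blue marks the 119 genes with a difference of -1 or less, which lie mostly at positive parental responses, and red the 11 with a difference of 1 or more.

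The lower group consisted almost wholly of genes that were higher after Acetalax in parental cells. Of the 119 genes, 118 had a parental response above 0 and 96 a response of at least 1, while 30 reached 1 in CE cells. Their median response was 1.62 in parental and 0.42 in CE cells. Classed in this order, 42 had a parental response of at least 1 and a CE response under 0.5 in size and of either sign, and 1 (FRK, a Src-family kinase) had a response only in CE cells. Of the rest, 24 had responses of opposite sign and 52 a smaller response of the same sign. The same libraries enter the difference and both responses, so these counts describe the group and are not support for it.

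Mostly the level after Acetalax, not the control level, carried the difference. CE and parental cells were compared without drug and, separately, after Acetalax, and a level was said to carry the difference where its CE minus parental value was at least 2 times the other in size. The treated level carried 74 of the 119 lower genes and the control level 16. In 26 genes both contributed, with a higher control and a lower treated level in CE cells, and in 3 both were lower in CE cells. The control level was on median 0.20 higher in CE cells (91 of 119 genes above parental), and the treated level 1.01 lower, being below parental in 115 of 119. Over all genes passing the filter, the median CE minus parental value was -0.03 for the control and -0.005 for the treated level. The difference that chose the genes is made of these same levels, so their directions are partly set by the choice and only describe the group.

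**Figure D2:**
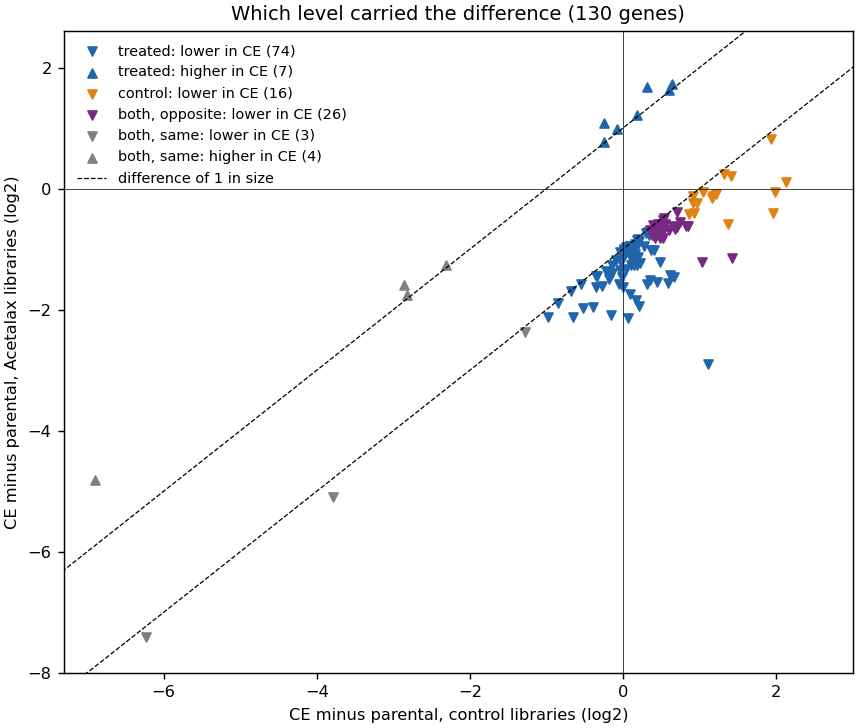
CE minus parental level without drug (x axis, log2) against CE minus parental level after Acetalax (y axis, log2) for the 130 genes past 1 in size; colour gives the level that carried the difference and the direction of the triangle its sign. Most lower genes sit near 0 on the x axis and near -1 or below on the y axis, and the 16 orange points lie to the right of them.

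The largest difference belonged to IL6R (ENSG00000160712, hg19 chr1:154377669-154441926), the ligand-binding chain of the interleukin 6 receptor. Its level went from 0.89 to 80.4 CPM with Acetalax in parental cells and from 2.498 to 10.3 CPM in CE cells. The fold on the scale of CPM plus 0.5 was 58.2 in parental and 3.61 in CE cells, a difference of -4.01 (interval -4.38 to -3.64). Only the parental treated library stood high. FOSL1 (ENSG00000175592, chr11:65659520-65668044), which encodes the AP-1 factor FRA-1, went from 6.54 to 381 CPM in parental and from 18.4 to 173 CPM in CE cells. Here the CE control was above and the CE treated library below its parental partner, and the difference was -2.56 (interval -2.74 to -2.38).

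PPP1R15A (ENSG00000087074, chr19:49375649-49379314), whose product GADD34 directs dephosphorylation of eIF2, showed the pattern of the treated level in its plainest form. The controls were close at 45.4 CPM in parental and 47.5 CPM in CE cells, and after Acetalax the levels were 377 and 84.8 CPM. The difference was -2.21 (interval -2.31 to -2.11). CDKN1A, the p21 inhibitor of cyclin-dependent kinases, went from 23.0 to 169 CPM in parental and from 34.7 to 56.7 CPM in CE cells, a difference of -2.15. PIM1, a kinase whose gene STAT3 and other cytokine-responsive factors induce, went from 21.0 to 171 CPM and from 28.7 to 58.6 CPM. In all 3 genes the parental treated library stood well above the other libraries.

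Some genes had a parental response and hardly any in CE cells. CD55, a membrane inhibitor of complement, went from 27.2 to 126 CPM in parental cells and was at 42.1 and 46.9 CPM in CE cells. NR1D1, the clock repressor REV-ERBα, went from 8.16 to 31.6 CPM and was at 7.26 and 7.05 CPM. HRH1, the histamine H1 receptor, went from 4.11 to 23.1 CPM and was at 5.21 and 7.45 CPM. The CE libraries of these genes, with and without drug, resembled the parental control more than the parental treated library.

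For CREBRF, a regulator of the unfolded protein response and metabolism, the direction differed between the backgrounds. It went from 12.5 to 27.2 CPM in parental cells and from 14.5 to 6.69 CPM in CE cells, a difference of -2.15 (interval -2.38 to -1.92), or -1.14 as log2(FPKM + 1), where FPKM is the level per length of transcript and the added 1 weighs most on low genes. On that scale the difference of IL6R was -2.55. TM4SF1, a tetraspanin-like surface protein, behaved alike at a higher level, with 340.2 and 846 CPM in parental cells and 364 and 252 CPM in CE cells. Of the other genes lowest in difference, WNT9A, a WNT ligand, was at -2.13, the serine protease PRSS22 at -2.02 and the keratin-associated KRTAP2-3 at -1.87. KRTAP2-3 belongs to a family of close copies, so its counts are uncertain. IL1RL1, the receptor of interleukin 33, also had a large difference but only 2 counts in the parental control, and 4 further genes past 1 in size are listed under clone names.

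In DKK1 and F3 the control level carried the difference. DKK1 (ENSG00000107984, chr10:54074056-54077802), a secreted WNT inhibitor, went from 10.7 to 215 CPM in parental and from 48.7 to 232 CPM in CE cells. F3, the coagulation starter tissue factor, went from 47.4 to 881 CPM and from 124 to 588 CPM. In DKK1 both cell populations ended at nearly the same treated level, and the CE control started higher by 2.13 on the log2 scale. The differences were -2.03 for DKK1 and -1.96 for F3.

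**Figure D3:**
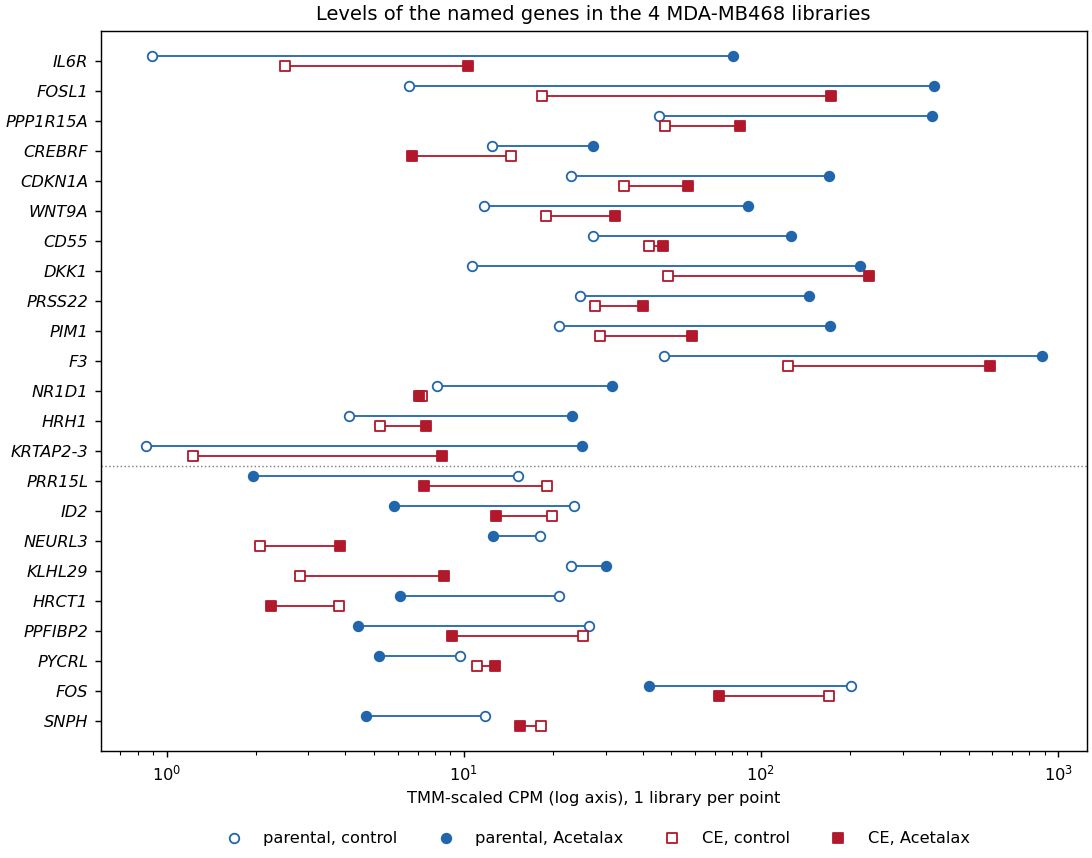
TMM-scaled CPM (log axis) of the genes named for the size of their difference, with 1 point per library; open symbols are controls, filled symbols Acetalax, blue circles parental and red squares CE cells. Above the dotted line the blue span is longer to the right than the red one, or starts lower (DKK1, F3); below it the parental span to lower levels is mostly the longer one, and in KLHL29 both spans run to higher levels.

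The promoters of the lower genes were read for short factor motifs. RefSeq promoters of 300 bases (250 before to 50 after the start) were matched to 93 of the 119 genes and to 8787 of the genes passing the filter. TGANTCA, the AP-1 motif on either strand, was in 19 of the 93 (20.4%), against 4.25% of the genes passing the filter and 7.76% of all 27305 promoters. The cyclic AMP response element TGACGTCA was in 3 of them (3.23% against 3.38%) and the STAT motif TTCNNNGAA in 6 (6.45% against 6.15%). GGGNNTTCC, a narrow pattern used for kappaB, was in 6 (6.45% against 8.30%). KappaB sites of another length or with other letters were not counted, so these shares are not those of kappaB sites in general. The E-box CACGTG was in 11.8% against 10.3%, the sterol element CACCCCAC in 2.15% against 2.53%, the CHR motif TTTGAA in 8.60% against 9.40% and the CCAAT box in 35.5% against 37.3%. A match is a description of the letters in the window and not a binding site. The parental response of 118 of the 119 lower genes was above 0, and motif shares were not taken over all genes with such a response. The shares therefore cannot tell a trait of the difference from a trait of the parental response. The promoters of IL8 and F3 are shown for the AP-1 motif and those of PPP1R15A and MAFF for the cyclic AMP response element, with the motifs in capitals (GRCh38.p14, 5′ to 3′ along the gene).
IL8 (CXCL8), chr4:73740319-73740618, plus strand: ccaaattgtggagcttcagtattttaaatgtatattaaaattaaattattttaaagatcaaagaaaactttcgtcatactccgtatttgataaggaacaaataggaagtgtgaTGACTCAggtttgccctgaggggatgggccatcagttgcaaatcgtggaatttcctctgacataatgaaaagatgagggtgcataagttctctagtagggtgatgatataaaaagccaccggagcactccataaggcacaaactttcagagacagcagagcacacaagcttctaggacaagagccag
F3, chr1:94541710-94542009, minus strand: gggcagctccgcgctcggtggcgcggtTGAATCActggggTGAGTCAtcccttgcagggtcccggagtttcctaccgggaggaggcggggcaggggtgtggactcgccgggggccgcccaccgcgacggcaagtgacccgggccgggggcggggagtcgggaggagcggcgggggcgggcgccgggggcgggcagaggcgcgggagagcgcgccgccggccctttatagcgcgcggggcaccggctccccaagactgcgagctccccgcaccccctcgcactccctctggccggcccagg
PPP1R15A, chr19:48872171-48872470, plus strand: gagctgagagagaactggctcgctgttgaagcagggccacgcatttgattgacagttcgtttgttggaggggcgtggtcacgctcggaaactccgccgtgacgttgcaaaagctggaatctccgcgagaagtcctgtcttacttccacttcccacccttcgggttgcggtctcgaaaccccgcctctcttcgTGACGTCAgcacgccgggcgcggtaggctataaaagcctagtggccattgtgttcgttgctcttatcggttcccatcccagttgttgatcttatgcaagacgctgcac
MAFF, chr22:38201744-38202043, plus strand: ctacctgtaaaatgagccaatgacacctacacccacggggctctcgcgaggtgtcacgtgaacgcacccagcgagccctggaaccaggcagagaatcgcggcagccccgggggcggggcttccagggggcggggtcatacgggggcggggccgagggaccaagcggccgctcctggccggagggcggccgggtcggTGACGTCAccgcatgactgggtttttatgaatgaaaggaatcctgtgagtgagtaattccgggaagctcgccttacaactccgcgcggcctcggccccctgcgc
The AP-1 motif began 137 bases before the start in IL8 and 223 and 210 bases before it in F3, and TGACGTCA 58 bases before it in PPP1R15A and 54 in MAFF.

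Immediate early genes had the lowest median of the lists. The 27 members that passed the filter had a median difference of -0.56, beside 0.03 for all genes, with 22 below 0 and 5 above it. Over all genes passing the filter, 45.9% had a difference below 0 and 1.1% one of -1 or less. These shares are the background for the counts of this and the following lists. FOSL1 was followed by MAFF, a small MAF partner of AP-1 factors, which went from 22.9 to 152 CPM in parental and from 22.01 to 50.2 CPM in CE cells (-1.53). FOSL2, which encodes the AP-1 factor FRA-2, stood at -1.14 and MAFG, another small MAF gene, at -1.10. Not all members shared the direction. FOS, the founding AP-1 gene (ENSG00000170345, chr14:75745477-75748933), was lower after Acetalax, from 201 to 42.1 CPM in parental and from 170 to 72.5 CPM in CE cells, a difference of 1.02 (interval 0.93 to 1.11). EGR1, a zinc finger factor, was at 219 and 214 CPM in parental and at 222 and 357 CPM in CE cells, and JUN at 282, 306, 320.3 and 426 CPM in the same order.

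**Figure D4:**
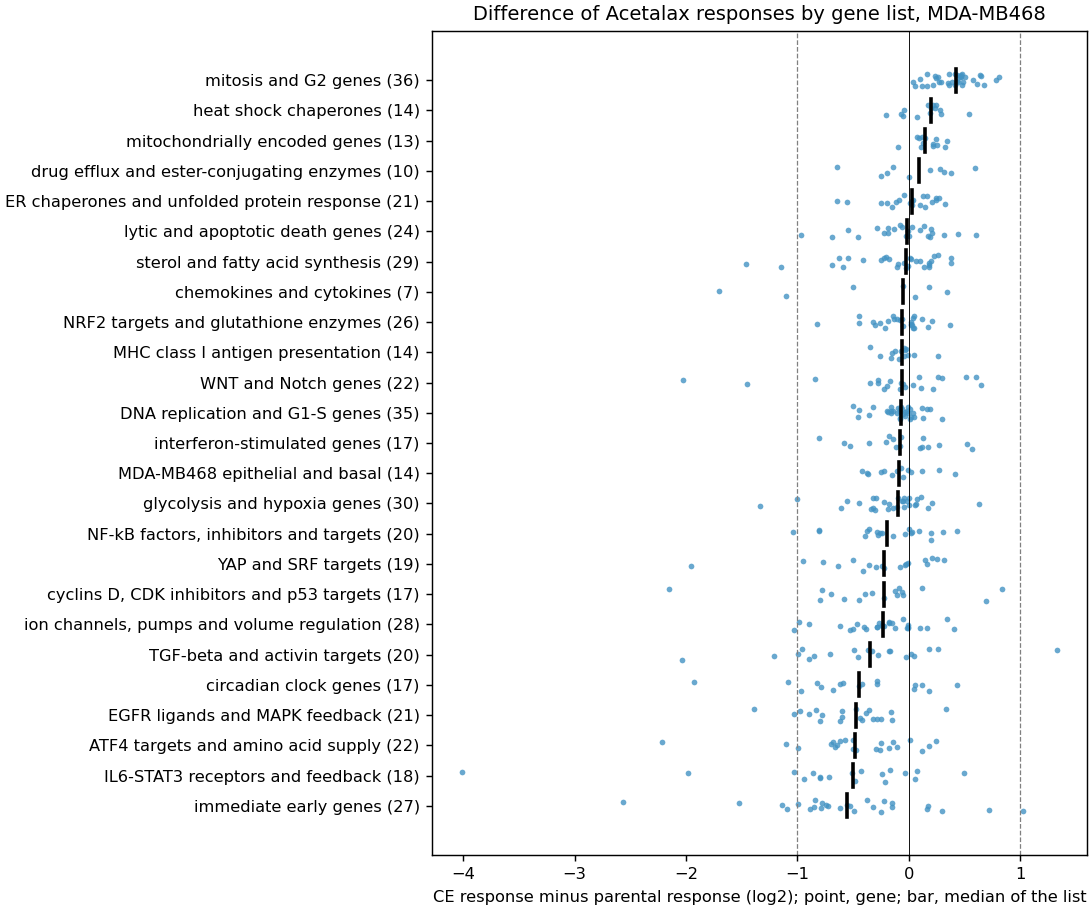
Difference of the Acetalax responses (x axis, log2, CE minus parental) of the members of 25 gene lists that passed the filter, 1 point per gene with their number in parentheses; the bar is the list median and the dashed lines mark -1 and 1. Immediate early genes, at -0.56, lie lowest and mitosis and G2 genes, at 0.42, highest.

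Receptors, ligands and feedback genes of cytokine and growth factor signalling lay lower as well. The 18 genes of IL6-STAT3 receptors and feedback had a median of -0.50, with 15 below 0, and 3 at -1 or less: IL6R, PIM1 and SOCS3, a feedback inhibitor of this receptor family. SOCS3 was at 16.6 and 21.1 CPM in parental and at 22.9 and 13.9 CPM in CE cells (-1.04). Among 21 EGFR ligands and MAPK feedback genes the median was -0.48, with 20 below 0. HBEGF, a membrane-anchored EGFR ligand, went from 4.68 to 21.4 CPM in parental and from 6.18 to 10.3 CPM in CE cells (-1.39). EPHA2, an ephrin receptor, went from 51.6 to 217 CPM and from 75.3 to 154 CPM (-1.03). The only member above 0 was ETV4, an ETS factor, at 0.33.

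Of 27 chemokines and cytokines, 7 passed the filter. IL8, the neutrophil attractant, went from 1.84 to 69.1 CPM in parental and from 2.78 to 29.4 CPM in CE cells (-1.70, interval -2.03 to -1.38). LIF, an IL6-family cytokine, went from 36.5 to 474 CPM and from 50.8 to 306 CPM (-1.10). The other 5 lay between -0.51 and 0.35, and the list median was -0.05. Of 20 NF-kB genes the median was -0.19 and only REL, which encodes the subunit c-Rel, was at -1 or less (-1.04), from 8.75 to 18.7 CPM in parental and at 9.13 and 9.23 CPM in CE cells. As log2(FPKM + 1) the difference of REL was -0.44.

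For TGF-beta and activin targets the median of 20 genes was -0.35, with 15 below 0. SMAD3, a signal carrier of the pathway, went from 57.1 to 203 CPM in parental and from 61.1 to 93.6 CPM in CE cells (-1.21). ID2, an inhibitor of basic helix-loop-helix factors, was the one member at 1 or more. It was at 23.6 and 5.84 CPM in parental and at 19.8 and 12.9 CPM in CE cells (1.33, interval 1.10 to 1.56). Targets of YAP and SRF had a median of -0.22 over 19 genes, and of them F3 alone was past 1.

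The branches of the stress response differed in their values. ATF4 targets and amino acid supply had a median of -0.48 over 22 genes, with 18 below 0, whereas the 21 ER chaperones and unfolded protein response genes had a median of 0.03 with none past 1. The median response of the first list was 0.15 in parental and -0.35 in CE cells, and that of the second 0.40 and 0.43. STC2, a secreted glycoprotein of the first list, was at 81.1 and 134 CPM in parental and at 82.4 and 63.0 CPM in CE cells (-1.10). SLC7A11, the cystine transporter, was at 23.4 and 19.2 CPM in parental and at 27.3 and 10.98 CPM in CE cells (-0.996). HSPA5, the ER chaperone BiP, had like responses in both, from 477 to 1123 CPM and from 484 to 993 CPM. The UPR members furthest from 0 were the sensor gene ERN1 at -0.64 and EDEM1, which serves ER-associated degradation, at -0.56. Heat shock chaperones had a median of 0.20 over 14 genes, led by HSPA8 at 0.54 and HSPH1 at 0.29.

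Among genes of sterol and fatty acid synthesis the difference lay in a few members. The median of 29 genes was -0.03, with 16 below 0. INSIG1, which holds back SREBP activation when sterol is plentiful, went from 68.9 to 160.1 CPM in parental cells and was at 34.7 and 36.3 CPM in CE cells (-1.15). HMGCS1 and MSMO1, enzymes of cholesterol synthesis, followed at -0.69 and -0.63. NPC1, which exports cholesterol from lysosomes and was not in the list, went from 46.5 to 114 CPM in parental and was at 47.2 and 55.7 CPM in CE cells (-1.05). The list as a whole was also lower in CE control cells, with a median CE minus parental value of -0.54.

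Mitosis and G2 genes formed the list with the highest median, 0.42, and all 36 members that passed the filter had a difference above 0, where 54.1% of all genes did. No member reached 1. The median response was -0.61 in parental and -0.19 in CE cells. KIF20A, a mitotic kinesin, went from 267 to 101 CPM in parental and from 218 to 144 CPM in CE cells (0.81, interval 0.74 to 0.87). PLK1, the Polo-like kinase of mitotic entry, went from 133 to 76.2 CPM and was at 130 and 128 CPM (0.78). CDC20, an activator of the anaphase-promoting complex, went from 378 to 216 CPM and was at 378 and 338 CPM (0.65). The control levels of these genes were close, with a list median of -0.06 between CE and parental controls, and the treated level was 0.38 higher in CE cells. Genes of DNA replication and the G1-S transition, in contrast, had a median of -0.07 over 35 genes, with ATAD2 at -0.51 and WDR76 at -0.46 furthest from 0.

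The promoters of this list carried the cell-cycle motifs known for it. Of 29 matched promoters, 17 (58.6%) held TTTGAA, the CHR motif, on either strand, against 9.40% of genes passing the filter, and 21 (72.4%) held CCAAT against 37.3%. None of the 29 (0%) held TGANTCA. The list was put together from genes of mitosis and G2, so these shares describe its members. They do not depend on the Acetalax values and say nothing on the difference between the responses. The promoter of CDC20 is shown with both motifs in capitals (GRCh38.p14, 5′ to 3′).
CDC20, chr1:43358731-43359030, plus strand: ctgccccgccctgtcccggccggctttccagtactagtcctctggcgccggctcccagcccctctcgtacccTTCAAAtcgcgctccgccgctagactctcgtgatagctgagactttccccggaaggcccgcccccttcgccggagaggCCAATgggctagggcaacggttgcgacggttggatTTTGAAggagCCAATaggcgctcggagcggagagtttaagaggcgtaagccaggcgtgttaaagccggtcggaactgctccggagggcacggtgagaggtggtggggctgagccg
In it the CHR motif began 65 bases and, on the other strand, 178 bases before the start, and CCAAT 100 and 55 bases before it.

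Among cyclins D, CDK inhibitors and p53 targets, with a median of -0.23 over 17 genes, CDKN1A was the one gene past 1. GADD45A, a growth arrest gene, went from 82.2 to 374 CPM in parental and from 163 to 425 CPM in CE cells (-0.80), so that its CE control was the higher one. CDKN2C, the CDK4 and CDK6 inhibitor p18, lay on the other side at 0.84.

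Clock genes included NR1D1 and PER1, a period gene, at -1 or less. PER1 went from 9.90 to 26.0 CPM in parental cells and was at 7.67 and 9.28 CPM in CE cells (-1.09, or -0.78 as log2(FPKM + 1)). NR1D2, CRY1 and PER2, further repressors of the clock, lay at -0.97, -0.83 and -0.79, and the median of 17 genes was -0.45. DBP, an output gene of the clock, was at 0.43.

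Ion channels, pumps and volume regulators had a median of -0.23 over 28 genes, 24 of them below 0. LRRC8C, a subunit of the volume-regulated anion channel, was the only member past 1, at 10.7 and 15.6 CPM in parental and 15.5 and 10.8 CPM in CE cells (-1.03, interval -1.26 to -0.81), and its difference was -0.56 as log2(FPKM + 1). NFAT5, the tonicity-responsive factor, went from 23.1 to 54.5 CPM and was at 19.0 and 22.5 CPM (-0.98). SLC6A6, the taurine transporter that NFAT5 induces, went from 35.0 to 107 CPM and from 31.7 to 52.1 CPM (-0.90). LRRC8A, the obligatory subunit of the same anion channel, was at -0.62 and LRRC8D at 0.41. TRPM4 itself (ENSG00000130529, chr19:49660998-49715093) was at 48.3 and 50.6 CPM in parental and at 57.2 and 59.5 CPM in CE cells, a difference of -0.01 (interval -0.12 to 0.10). Its mRNA thus stood slightly higher in both CE libraries and had almost no Acetalax response in either background. These values are of RNA only. The paper describes TRPM4 transcripts as unchanged in CE cells. By Western blot it found TRPM4 protein almost undetectable in CE cells, and lower after Acetalax in parental MDA-MB468 cells. That treatment was at a higher dose and for a shorter time than the one used for RNA.

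WNT and Notch genes had a median of -0.06 over 22 genes, with DKK1 and NRARP, a feedback inhibitor of Notch, at -1 or less. NRARP went from 9.60 to 28.9 CPM in parental cells and was at 6.55 and 7.03 CPM in CE cells (-1.45). Among 30 glycolysis and hypoxia genes, with a median of -0.10, ADM, the vasodilator peptide adrenomedullin, stood at -1.34 and PFKFB3, a regulator of glycolytic flux, at -1.01. ADM went from 6.97 to 51.2 CPM in parental and from 13.7 to 38.5 CPM in CE cells, with the control level carrying the difference.

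The remaining lists had no member past 1. Interferon-stimulated genes had a median of -0.08 over 17 genes, with TRIM22 at -0.81 and PARP14 at -0.58, and MHC class I genes one of -0.06 over 14. Lytic and apoptotic death genes had a median of -0.02 over 24, with PMAIP1, which encodes the BH3-only protein NOXA, at -0.97 and TNFRSF10B, a TRAIL receptor, at -0.69. NRF2 targets and glutathione enzymes had a median of -0.06 over 26, with TXNRD1, thioredoxin reductase, at -0.83. Drug efflux and ester-conjugating enzymes had a median of 0.09 over 10 genes, with CYP1B1 at -0.65 and CES2, a carboxylesterase, at 0.59. CYP1A1, the classical target of the aryl hydrocarbon receptor, went from 6.82 to 99.4 CPM in parental and from 4.82 to 60.6 CPM in CE cells, a difference of -0.25. Mitochondrially encoded genes had a median of 0.14 over 13, and 12 of them were above 0.

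The 11 genes with a higher response in CE cells mostly had a smaller decrease there. Their median response was -1.69 in parental and -0.42 in CE cells, and the treated level carried 7 of them. PRR15L, a proline-rich protein, was at 15.2 and 1.96 CPM in parental and at 19.0 and 7.37 CPM in CE cells (1.36, interval 1.05 to 1.67). PPFIBP2, a liprin, was at 26.5 and 4.40 CPM in parental and at 25.1 and 9.15 CPM in CE cells (1.05, or 0.45 as log2(FPKM + 1)). In both genes the controls were close and the parental treated library was the lowest of the 4.

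The other 4 of these 11 genes had a much lower level in CE cells with and without drug. NEURL3, annotated as a pseudogene in the deposited table, was at 18.1 and 12.6 CPM in parental and at 2.07 and 3.82 CPM in CE cells. KLHL29, a Kelch-domain protein, was at 23.0 and 30.0 CPM and at 2.82 and 8.56 CPM, the one gene of the group with a response only in CE cells (1.07, or 0.28 as log2(FPKM + 1)). SOSTDC1, a secreted BMP antagonist, had 0 counts in CE control and 4 in CE treated cells against 59.4 and 15.9 CPM in parental cells, so no CE response can be given for it. Likewise, in the lower group ADAMTS1, a secreted metalloprotease, was at 59.7 and 182 CPM in parental cells and had 14 and 27 counts in the CE libraries. PCDH19, a protocadherin, was at 12.9 and 80.6 CPM in parental cells and at 0.47 and 1.87 CPM in CE cells.

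Because the parental libraries enter both the choice and the difference, responses were also read for genes chosen in BT549, whose libraries are separate. For 103 genes at least 2-fold higher after Acetalax in parental BT549 cells and passing the filter in MDA-MB468, the median response was 0.79 in parental and 0.20 in CE MDA-MB468 cells. The response was smaller in CE cells for 94 of the 103. For 61 genes lower by the same size in parental BT549 cells, the medians were -0.26 and 0.03, and the difference was above 0 for 47. Within MDA-MB468 the choice itself favours a smaller response in the background not used to choose, so the counts there are a description only. Of 489 genes at least 2-fold higher in parental cells, 468 had a smaller response in CE cells, and of 205 chosen in CE cells, 160 did. Of 194 genes at least 2-fold lower in parental cells, 145 had a smaller response in CE cells, but of 128 chosen in CE cells only 42 did, with medians of -1.19 in parental and -1.38 in CE cells.

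In BT549 the difference between the responses ran mostly the other way. There it was 1 or more for 212 of 10270 genes (2.06%) and -1 or less for 107 (1.04%). Of the 119 lower genes of MDA-MB468, 91 passed the filter in BT549. Their BT549 difference was above 0 in 70 (76.9%, against 56.4% of the genes passing in both lines) and 1 or more in 20 (21.98% against 1.75%), with a median of 0.59, and none was at -1 or less. IL8 went from 79.5 to 358 CPM in parental BT549 and from 8.55 to 680.0 CPM in BT549 CE cells, a difference of 4.07. FOSL1 was at 260.5, 361, 67.4 and 510 CPM in the same order, a difference of 2.44. In both genes the BT549 CE control was below the parental control, and the CE treated level above the parental one. Which level carried the difference was not counted over the BT549 genes. Mitosis and G2 genes had a median of -0.35 in BT549. Whether the lines differ was not tested, since each has 1 library per condition.

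**Figure D5:**
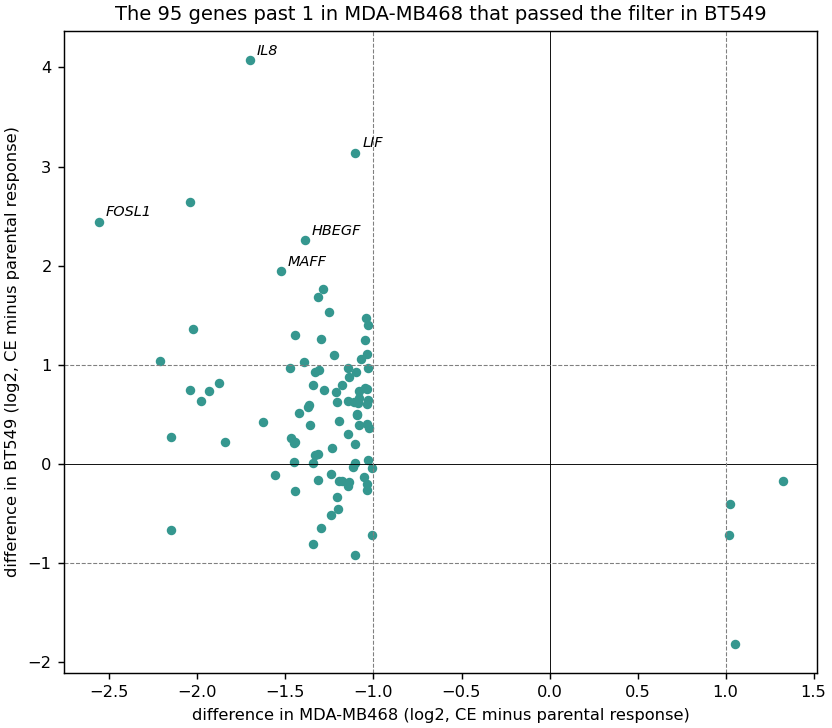
Difference of the Acetalax responses in MDA-MB468 (x axis, log2) and in BT549 (y axis, log2) for the 95 genes past 1 in size in MDA-MB468 that passed the filter in BT549. No gene lies past -1 or past 1 in the same direction in both lines, and the named genes lie above 1.9 on the y axis.

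A difference common to both lines was asked for with edgeR's quasi-likelihood test over all 8 libraries, where the lines act as the replicates and 2 residual degrees of freedom remain. It called 0 of 19693 genes (0%) at a Benjamini-Hochberg adjusted p of 0.05, with 91 genes at an unadjusted p under 0.05. DESeq2 also called 0 genes, with 54 under 0.05 before adjustment.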

How the data were processed

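The series held 8 RNA-seq libraries of MDA-MB468 and BT549, grouped by their labels. The authors aligned 101-base paired reads to hg19 with STAR (2.7.11b in the submitters' processing notes) and, using its GeneCounts mode, deposited unnormalized read counts per gene. The annotation and which strand column was taken are not given in the sources used here, so overlapping and antisense genes are uncertain. Of 58154 rows, 2475 repeats of an identifier were dropped, and 28 symbols turned into dates were restored. Chromosome, start and end of genes are those of the deposited table.

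Counts were scaled by TMM, the trimmed mean of log ratios (edgeR 4.0.16, R 4.3.3), over the 4 MDA-MB468 libraries, and log2 was taken of CPM plus 0.5, which understates changes of low genes. Genes whose mean reached 5 CPM were kept. The difference is the CE response minus the parental response, and 95% intervals come from counting error on the log scale. Over both lines, glmQLFTest was fitted after filterByExpr, with an intercept for each of the 4 backgrounds and separate drug terms for parental cells and CE cells. DESeq2 1.42.0 was an alternative.

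Named genes are the 15 with the lowest and up to 15 with the highest difference among genes past 1 in size with a symbol that is not a clone name, at least 10 counts in each library, an interval without 0 and the same direction under TMM, DESeq2 size factors and total counts. In each list the members past 1, or else the members furthest from 0, are named, and TRPM4 and the line markers in any case. Other genes named, such as TM4SF1, NPC1, ADAMTS1, CYP1A1 and NFAT5, were chosen after their values were seen. Some genes that the rule covers are not reported here. The contrast, the 28 gene lists and the motifs were chosen with earlier results of these data known. Promoters are RefSeq's (GRCh38.p14), matched by symbol. The scripts were tested on simulated data. Alternatives covered scaling, pseudocount, filter, log2(FPKM + 1), coding genes only, GC content and length, the carrying factor and the BT549 choice. All pairs of MDA-MB468 libraries differed beyond sampling noise, with chi-square per degree of freedom of at least 27.1. Where labels show no separate cultures, the values of both lines measure the spread between these libraries only.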

Additional observations from a re-analysis of the deposited data

Results flagged for a closer look

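Several genes had a difference of at least 1 in size in both lines, in opposite directions, with 1 library per condition in each line, and whether the lines differ was not tested. There were 21 such genes, of which 9 are named in the text. The BT549 difference, for genes with a difference of -1 or less in MDA-MB468, was 4.07 for IL8, 3.14 for LIF, 2.44 for FOSL1 and 2.26 for HBEGF. It was 1.94 for MAFF, 1.36 for DKK1, 1.10 for EPHA2 and 1.04 for PPP1R15A. HRCT1, a membrane protein gene at 1.05 in MDA-MB468, had a BT549 difference of -1.81.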

How the results depend on the processing

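The direction of every single gene compared held in each of the 10 alternatives run for it, and 27 of the 40 genes stayed past 1 in all of them. The number of genes with a difference of -1 or less was within 1.5 times of 119 except without a filter (218) and as log2(FPKM + 1) (61). The number at 1 or more, 11 in the report, was 18 with a pseudocount of 0.1 CPM, 7 with 1 CPM, 31 with a mean of at least 1 CPM, 51 without a filter, 5 as log2(FPKM + 1) and 7 with protein-coding genes only. The treated level carried 123 lower genes without a filter and 39 as log2(FPKM + 1), and the control level 32 and 8, or 26 with a mean of at least 1 CPM. The median difference of genes higher in parental BT549 cells was -0.62, and -0.43 without a filter and -0.42 with a 1.5-fold choice. Over both lines, edgeR called 3 genes without a filter. Fewer or more genes enter under each filter; log2(FPKM + 1) changes the scaling, the length division and the added constant together, and which of them moved the counts was not tested. The smallest sizes over the alternatives were 0.28 for KLHL29, 0.44 for REL, 0.45 for PPFIBP2, 0.56 for LRRC8C and SNPH, 0.72 for PYCRL and 0.78 for PER1, and between 0.91 and 0.99 for SOCS3, PFKFB3, HRCT1, NEURL3, EPHA2 and FOS. IL6R went to -2.55 and CREBRF to -1.14 as log2(FPKM + 1). In addition, 4 list medians near 0 changed sign (NRF2 targets, sterol, death and blood marker genes). No paired analysis was possible because the groups share only 1 replicate number; the fit over both lines already has an intercept for each background. Genes under 5 CPM, among them most cytokines, were left out by the filter.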
